A study of Rattus norvegicus with 12 samples.

Results

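The vascular endothelial growth factor (VEGF) ligands *Vegfa*, *Vegfb*, *Vegfc*, *Vegfd*, and *Pgf*, their receptors *Flt1*, *Kdr*, and *Flt4*, and the neuropilins *Nrp1* and *Nrp2* were followed by RNA sequencing in the wounds of diabetic rats. These 10 genes were taken by symbol from the 25620 genes of the deposited count table, and all 10 were found in the count table and in the FPKM table and passed the filter on low counts. The wounds were full-thickness skin wounds on the back of male Sprague-Dawley rats made diabetic with streptozotocin, so that the diabetes was shared by every group. The groups were the control (saline), d-SMG (the dried mucus gel of the snail *A. fulica*), s-GAG (the heparin-like sulfated glycosaminoglycan purified from that mucus), and Alg (a commercial alginate dressing), each on day 3, 7, and 14. The data hold 1 library for each of the 4 treatments on each of the 3 days, and whether a library came from a single rat or from a pool is not given in the sources used here. Differences on a single day therefore have no replicate check, and streptozotocin-induced diabetes is a chemical model of the disease.

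VEGF-A, acting through its receptor VEGFR2 (*Kdr*), is the main driver of new capillary growth in a healing wound, and hypoxia and cytokines induce its gene in keratinocytes, macrophages, and other cells. VEGFR1 (*Flt1*) binds VEGF-A, VEGF-B, and placental growth factor (*Pgf*) and also exists as a soluble decoy, whereas VEGFR3 (*Flt4*) binds VEGF-C and VEGF-D and is best known for its role in lymphatic vessels. The neuropilins are co-receptors that bind both VEGF isoforms with a heparin-binding tail and class 3 semaphorins, and they are carried by endothelial cells and by several other cell types. In RNA from whole tissue, fewer cells of a type and less RNA per cell cannot be told apart.

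The sequences just before the starts of *Vegfa*, the most abundant of the 10 transcripts, and of *Kdr*, *Flt4*, and *Nrp1*, the 3 genes with the highest correlations over all 12 libraries, are shown to place the motifs in them. Each is the 250 bases before the start site in the RefSeq promoter table of the build GRCr8, written 5′ to 3′ along the gene's own strand. Capitals mark every match of GGGCGG (the GC box bound by Sp1), of ACGTG or GCGTG (cores of the hypoxia response element), and of TATAAA, searched on both strands. *Vegfa* has 2 starts in the table, of which the upstream is shown, at chr9:22452604-22452853 on the + strand.
Vegfa: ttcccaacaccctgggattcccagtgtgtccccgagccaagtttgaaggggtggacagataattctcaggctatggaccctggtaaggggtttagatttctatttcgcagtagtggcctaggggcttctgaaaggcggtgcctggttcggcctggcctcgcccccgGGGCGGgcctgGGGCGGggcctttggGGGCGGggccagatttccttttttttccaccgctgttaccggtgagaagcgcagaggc
The *Kdr* window lies at chr14:32571813-32572062 on the + strand.
Kdr: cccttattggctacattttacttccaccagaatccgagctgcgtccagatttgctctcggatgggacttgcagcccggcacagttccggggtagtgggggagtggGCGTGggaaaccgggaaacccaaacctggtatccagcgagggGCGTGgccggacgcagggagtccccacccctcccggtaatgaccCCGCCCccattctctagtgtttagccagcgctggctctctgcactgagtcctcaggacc
The *Flt4* window lies at chr10:34414584-34414833 on the + strand.
Flt4: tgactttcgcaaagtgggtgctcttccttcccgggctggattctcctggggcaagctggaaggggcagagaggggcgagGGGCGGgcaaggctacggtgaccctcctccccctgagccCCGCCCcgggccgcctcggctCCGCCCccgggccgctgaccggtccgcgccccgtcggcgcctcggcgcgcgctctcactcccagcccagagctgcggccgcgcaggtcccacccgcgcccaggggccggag
The *Nrp1* window lies at chr19:73256307-73256556 on the + strand.
Nrp1: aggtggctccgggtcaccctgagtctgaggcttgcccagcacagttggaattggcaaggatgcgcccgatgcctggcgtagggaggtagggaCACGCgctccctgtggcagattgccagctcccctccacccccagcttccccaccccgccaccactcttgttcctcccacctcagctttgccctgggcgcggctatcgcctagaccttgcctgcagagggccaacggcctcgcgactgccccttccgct

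All 10 genes matched the promoter table, with 11 windows. The GC box was in a window of 7 of the 10 genes, with 3 matches in *Vegfa*, 3 in *Flt4*, and 1 in *Kdr*, and in 30.5% of all 33469 windows of this length. GCGTG was found for 6 of the 10 genes (*Vegfb*, *Pgf*, *Flt1*, *Kdr*, *Nrp1*, and *Nrp2*) and in 25.9% of all windows. No match of ACGTG was found for any of the 10 genes, against 16.6% of all windows, which says only that these letters are not in these stretches. TATAAA was found for *Flt1*, 75 to 70 bases before the start, and for *Vegfd*, 106 to 101 bases before the start, and in 12.9% of all windows. The GC content was 60.4% in *Vegfa*, 61.6% in *Kdr*, 76.0% in *Flt4*, and 66.4% in *Nrp1*, against a median of 51.2% over all windows. No motif of the 4 was in all 3 windows of *Kdr*, *Flt4*, and *Nrp1*. A match is a description of the letters and does not show that a factor binds there.

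Between 13748887 and 38302461 reads fell on genes in a library. The library of the s-GAG group on day 14 and that of the d-SMG group on day 3 stood apart from the others, with a mean correlation over genes of 0.844 and 0.859 with the other libraries, against 0.916 to 0.941 for the rest. In s-GAG on day 14 short genes were high and long genes low, with a median log2 deviation from the median of the 12 libraries of 1.04 in the shortest quintile of protein-coding genes and −0.84 in the longest. In d-SMG on day 3 a list of 14 skeletal muscle genes reached a summed level of 226430 CPM (reads scaled to a common library total, with TMM factors), against 5395 to 149365 in the other libraries. Keratinocyte markers of the labelled tissue, skin, summed to 50.7 CPM there and to between 5120 and 43928 elsewhere. Endothelial markers were found in every library, with no marker of the 19 on file at 0 reads in any, and their sum ranged from 636.6 CPM in d-SMG on day 14 to 1524 in control on day 7. The part of the muscle, keratinocyte, and endothelial content of a library in the results was not tested.

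*Vegfa* was the most abundant of the 10 transcripts per length in 12 of 12 libraries. Its FPKM (fragments scaled by gene length and library total, so that genes can be compared) had a median of 27.9 and ranged from 7.76 in s-GAG on day 14 to 44.0 in Alg on day 3. *Nrp1* followed with a median of 11.8 FPKM and *Nrp2* with 8.98. The receptor *Kdr* came next, with a median of 5.57 FPKM, before *Vegfb* and *Pgf* at 4.55 each and *Flt1* at 4.25. The lowest levels were those of *Vegfd* (1.26), of *Flt4* (1.12), and of *Vegfc* (0.81 FPKM).

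**Figure D1:**
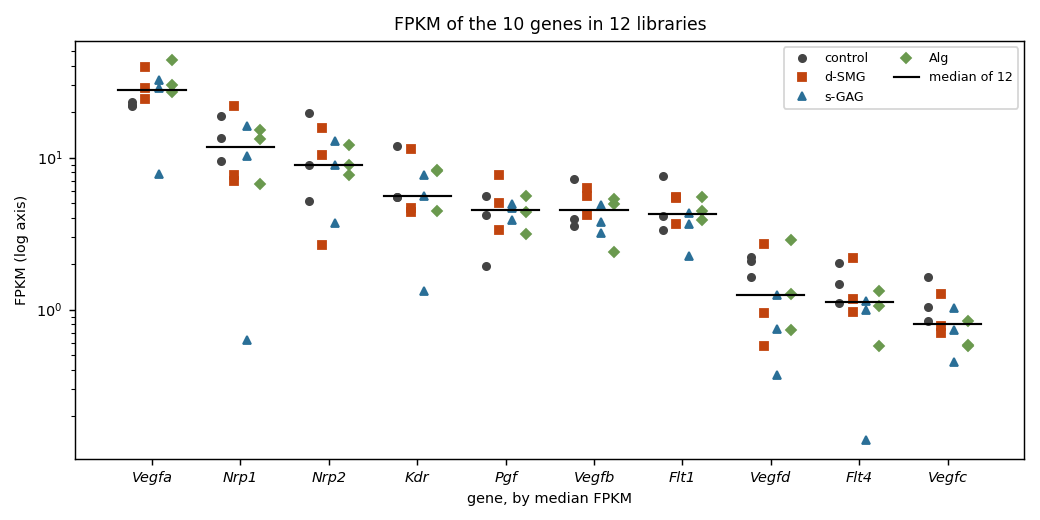
FPKM on a log axis of the 10 genes, ordered by their median over the 12 libraries (black line), with 1 point per library, coloured and shaped by treatment. *Vegfa* stands highest with a median of 27.9, and the low triangles of *Nrp1* (0.63) and *Flt4* (0.14) are the s-GAG library of day 14.

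Neighbours in this order were compared by their ratio within each library. *Vegfa* lay above *Nrp1* in 12 of 12 libraries, with a median log2 ratio of 1.35 and an SD of 0.99 over the libraries. *Flt1* lay above *Vegfd* in 12 of 12, with a median log2 ratio of 1.90 ± 0.82 (SD, n = 12 libraries). By contrast *Nrp1* exceeded *Nrp2* in 8 of 12 libraries, *Kdr* exceeded *Vegfb* in 8, *Vegfb* exceeded *Pgf* in 5, and *Pgf* exceeded *Flt1* in 6, with median log2 ratios no larger than their SD. *Vegfd* was above *Flt4* in 8 of 12 and *Flt4* above *Vegfc* in 10 of 12, also with ratios smaller than their SD. Thus only the step below *Vegfa* and the step from *Flt1* to *Vegfd*, together with that from *Nrp2* to *Kdr* (0.68 ± 0.60), exceeded the spread over the libraries.

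**Figure D2:**
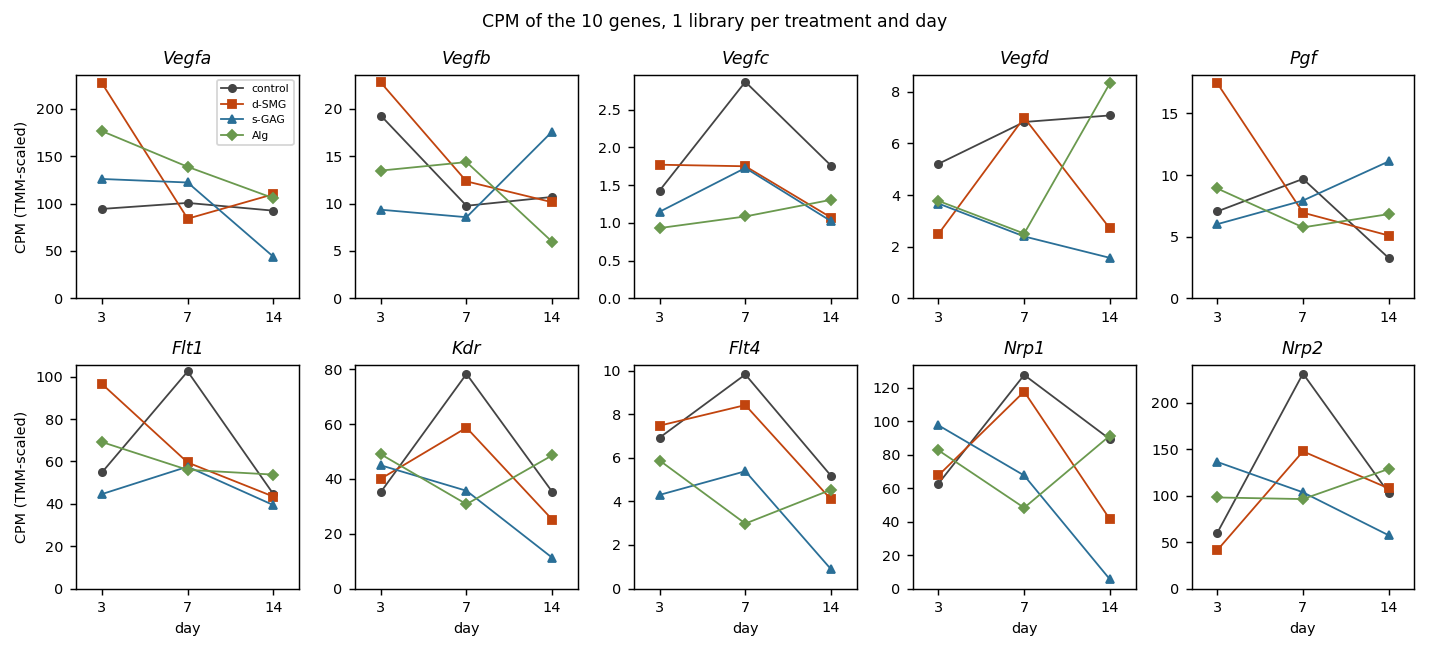
CPM (TMM-scaled, linear axes from 0) of each of the 10 genes on day 3, 7, and 14, with a line for each treatment and 1 library per point. *Vegfa* and *Pgf* are highest in d-SMG on day 3, and *Flt1*, *Kdr*, *Flt4*, *Nrp1*, and *Nrp2* are highest in control on day 7, except that *Flt1* is nearly as high in d-SMG on day 3.

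Among the ligands, *Vegfa* had 94.4, 101, and 92.6 CPM in the control on day 3, 7, and 14. The d-SMG values were 227, 84.1, and 110 CPM on the same days, those of s-GAG 126, 122, and 44.0 CPM, and those of Alg 177, 139, and 106 CPM. The control varied little (95.9 ± 4.29 CPM, SD over 3 days), and the 3 Alg libraries lay above all 3 control libraries, while d-SMG and s-GAG overlapped with the control. The share of all genes whose libraries lie apart in this way is not given here, so the separation is only a description.

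Fitted over the 3 days, *Vegfa* was 0.48 ± 0.40 (log2, SE) higher in Alg and 0.44 ± 0.40 higher in d-SMG than in control, with an adjusted p of 1 in both (edgeR, quasi-likelihood). Leaving out 1 library moved both by over 1.5 times. The Alg value was 0.24 without the control library of day 3 and 0.75 without that of day 14. The d-SMG value was 0.22 and 0.71 without these libraries, 0.20 without the d-SMG library of day 3, and 0.77 without that of day 7. The fitted difference on day 14 from day 3 was −0.82 ± 0.35 (adjusted p = 0.882), and −0.57 without the s-GAG library of day 14. The genes whose levels followed *Vegfa* most closely over the 12 libraries were *Gga3*, *Ric3*, and *Dot1l*, with a Pearson r of 0.93, 0.93, and 0.92.

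*Vegfb*, a ligand of VEGFR1 abundant in muscle and fat, had 19.3, 9.76, and 10.7 CPM in control and 22.8, 12.3, and 10.1 CPM in d-SMG on day 3, 7, and 14. In s-GAG it had 9.35, 8.56, and 17.6 CPM, and in Alg 13.5, 14.4, and 5.96 CPM. The s-GAG and Alg libraries thus went opposite ways on day 14, on either side of the control. The log2 ratio to control was 0.72 in s-GAG, beside a median of 0.48 over genes in the same quintile of length. In Alg it was −0.82 beside 0.10. The part of gene length was not tested. The 3 genes most like *Vegfb* were *Coq10a* (r = 0.94), *Dnase1l1* (0.94), and *Ercc1* (0.94).

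*Pgf*, the placental growth factor, had 7.05, 9.69, and 3.27 CPM in control and 17.5, 6.95, and 5.10 CPM in d-SMG. It had 6.02, 7.94, and 11.1 CPM in s-GAG and 8.92, 5.76, and 6.83 CPM in Alg. The control library of day 14 was the lowest of the 12, and the 3 treated libraries of that day all lay above it. The largest fitted difference of *Pgf* was −0.59 ± 0.47 on day 14 from day 3 (adjusted p = 0.897 by edgeR), and −0.98 without the s-GAG library of day 14.

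*Vegfc*, the main lymphatic growth factor, was close to the lower end of what was counted, with 15 to 67 reads in a library. It had 1.43, 2.87, and 1.76 CPM in control, 1.77, 1.75, and 1.07 CPM in d-SMG, 1.15, 1.73, and 1.02 CPM in s-GAG, and 0.93, 1.08, and 1.30 CPM in Alg. All 3 Alg libraries were below all 3 control libraries, with a fitted difference of −0.80 ± 0.42 (adjusted p = 1 by edgeR). As for *Vegfa*, the share of all genes so separated is not given. The genes most like *Vegfc* were *Prrc1* (r = 0.87), *Fer* (0.86), and *C1galt1* (0.84).

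*Vegfd*, the other ligand of VEGFR3, had 5.21, 6.83, and 7.08 CPM in control and 2.49, 7.00, and 2.71 CPM in d-SMG. It had 3.67, 2.40, and 1.57 CPM in s-GAG and 3.77, 2.51, and 8.32 CPM in Alg. The s-GAG libraries all lay below the control libraries, again without a share over all genes to set beside it. The fitted difference was −1.28 ± 0.60 (adjusted p = 0.545 by edgeR), or −0.92 without the s-GAG library of day 14. The levels of *Vegfd* followed those of *Fyn* (r = 0.96), *Gpr34* (0.96), and *Rab3il1* (0.95), and with a list of 10 fibroblast and matrix genes its r was 0.79.

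Among the receptors, *Flt1* had 54.8, 103, and 44.6 CPM in control and 96.6, 59.5, and 43.4 CPM in d-SMG on day 3, 7, and 14. The values were 44.6, 57.5, and 39.4 CPM in s-GAG and 69.2, 56.1, and 53.8 CPM in Alg. On day 7 the control stood well above the other groups, which lay between 56.1 and 59.5 CPM, and on day 14 all 4 groups lay between 39.4 and 53.8 CPM. *Flt1* varied least of the receptors, by a factor of 2.60 between its lowest and highest library. The genes most like it were *Ehd3* (r = 0.94), *Pdgfb* (0.94), which encodes the endothelial signal to pericytes, and *Notch4* (0.94), an endothelial Notch receptor.

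*Kdr* had 35.2, 78.3, and 35.3 CPM in control and 40.1, 58.7, and 25.2 CPM in d-SMG. In s-GAG it had 45.0, 35.7, and 11.2 CPM, and in Alg 49.0, 30.8, and 48.6 CPM. Control and d-SMG were thus highest on day 7, whereas s-GAG was lowest on day 14 and Alg on day 7. The fitted difference of *Kdr* on day 14 from day 7 was −0.83 ± 0.43 (adjusted p = 0.904 by edgeR), and −0.54 without the s-GAG library of day 14.

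*Flt4* was highest on day 7 in control, d-SMG, and s-GAG, but not in Alg. Its values were 6.93, 9.83, and 5.18 CPM in control and 7.48, 8.42, and 4.09 CPM in d-SMG. It had 4.30, 5.39, and 0.89 CPM in s-GAG, the last from 13 reads, and 5.88, 2.98, and 4.54 CPM in Alg. Its fitted difference between s-GAG and control, −1.19 ± 0.51, had an adjusted p of 0.539, and was −0.74 without the s-GAG library of day 14. Of the 10 genes *Flt4* correlated most with the endothelial list (r = 0.83, n = 12 libraries, and 0.83 without s-GAG on day 14). *Kdr* (0.80, and 0.71 without that library), *Flt1* (0.76 and 0.70), and *Nrp1* (0.69 and 0.56) followed. The r of *Vegfa* was 0.38 and that of *Nrp2* 0.18, and without that library they were −0.01 and −0.03. These libraries share depth and tissue content, and the correlations are descriptions.

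Of the neuropilins, *Nrp1* had 62.7, 128, and 89.3 CPM in control, 67.6, 118, and 41.4 CPM in d-SMG, 97.5, 67.6, and 5.52 CPM in s-GAG, and 82.6, 48.3, and 91.3 CPM in Alg. It varied by a factor of 23.1 between libraries, the most of the 10 genes, and the s-GAG library of day 14 alone set the lower end, since without it the lowest value was 41.4 CPM. *Nrp2* had 59.9, 231, and 103 CPM in control and 41.3, 148, and 108 CPM in d-SMG. It had 136, 103, and 57.3 CPM in s-GAG and 98.0, 96.2, and 129 CPM in Alg. *Nrp2*, like *Kdr*, was highest on day 7 in control and d-SMG only, and its r with the list of fibroblast and matrix genes was 0.91. That list summed to 45423 CPM in control and 27722 in d-SMG on day 7, against 8633 in s-GAG and 12084 in Alg, and its part in the *Nrp2* values was not tested. *Appbp2* (r = 0.97), *Rapgef5* (0.96), and *Slc10a7* (0.96) were most like *Nrp2*, and *Zfp366* (0.99), *Abi2* (0.99), and *Sbf2* (0.99) most like *Nrp1*.

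To ask whether any of the 10 genes differed between treatments, each treatment was fitted against control across all days in edgeR (quasi-likelihood test), with day as a term. None of the 10 genes passed an FDR of 0.05 in d-SMG, s-GAG, or Alg, nor did any of the 16110 genes tested (0%, 0%, and 0%). At an unadjusted p under 0.05 there were 0 of the 10 genes in d-SMG, 1 in s-GAG (*Flt4*, lower), and 0 in Alg, against 1.35%, 9.26%, and 3.12% of all genes. DESeq2 called 9, 281, and 93 genes in the 3 comparisons, and 0 of the 10. The s-GAG call count rests on the libraries used. By edgeR it was 66 genes without the d-SMG library of day 3 and 177 without that library and the s-GAG library of day 14, again with 0 of the 10.

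The days were compared in the same fit, with treatment as a term. None of the 10 genes and 0 of the 16110 (0%, 0%, and 0%) passed the FDR between day 7 and 3, day 14 and 7, or day 14 and 3. The counts at an unadjusted p under 0.05 were 0, 0, and 1 of the 10 genes (*Vegfa*, lower on day 14 than on day 3), against 1.81%, 3.12%, and 4.95% of all genes. DESeq2 called 18, 26, and 46 genes and 0 of the 10. *Nrp2* had the largest fitted difference on day 7 from day 3, 0.78 ± 0.48 (adjusted p = 0.999), and 0.45 without the d-SMG library of day 3. On day 14 all 10 genes had a fitted difference from day 7 below 0, from −0.04 ± 0.41 for *Vegfb* to −0.94 ± 0.45 for *Flt4*. Their adjusted p by edgeR ran from 0.904 to 0.988. The median over all genes was 0.01. The share of all genes below 0 is not given here, so the count of 10 is only a description. Without the s-GAG library of day 14 the value of *Vegfd* turned to 0.23.

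**Figure D3:**
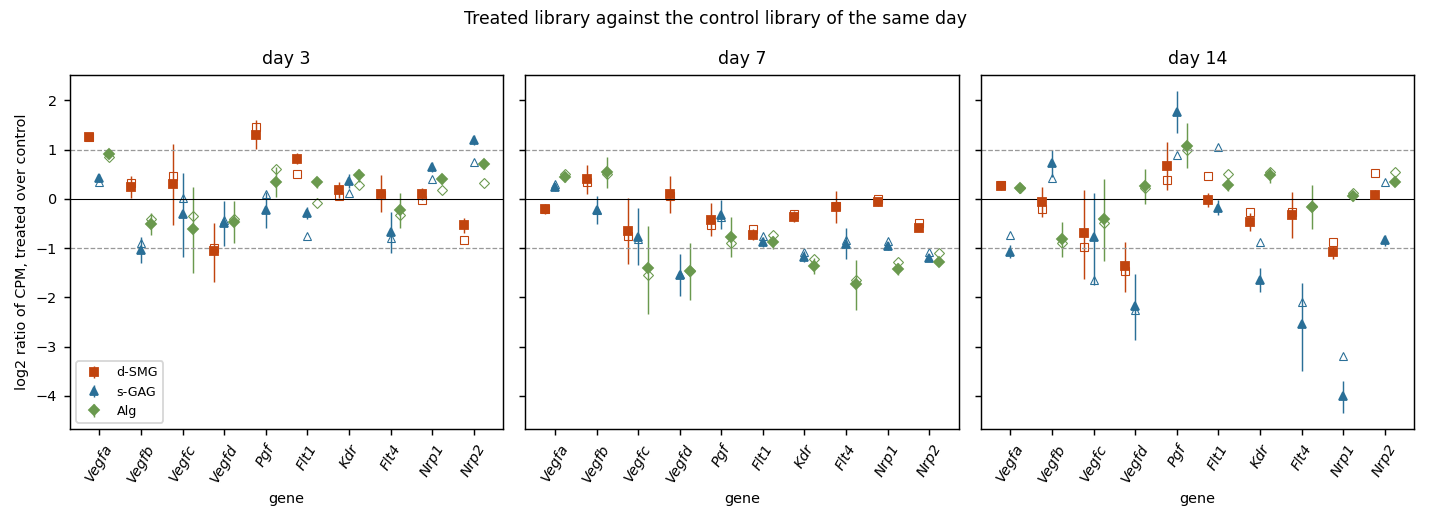
Log2 ratio of CPM of each treated library over the control library of the same day for the 10 genes, with day 3, 7, and 14 in separate panels, filled points with exact 95% counting intervals and open points after the trend with gene length was removed. The dashed lines are 2-fold. On day 7 the points of s-GAG and Alg lie below 0 for all genes other than *Vegfa* and, in Alg, *Vegfb*, and the lowest point of the plot is *Nrp1* in s-GAG on day 14 at −4.01.

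Single days were then set against the control library of that day. These 9 comparisons have no replicates, the 3 of a day share their control library, and the intervals cover counting error only. The shares of all genes past 2-fold count both directions. On day 3, 3 of the 10 genes were past 2-fold in d-SMG, against 23.9% of all genes. *Vegfa* was 2.40-fold higher (log2 ratio 1.27, interval 1.19 to 1.35) and *Pgf* 2.47-fold higher (1.31, 1.01 to 1.61), while *Vegfd* was 2.09-fold lower (−1.06, −1.68 to −0.49). With the library totals in place of TMM the ratios of *Vegfa* and *Pgf* fell short of 2-fold, at 0.84 and 0.88, and with the trend with gene length removed 2 of the 3 genes were past it, *Vegfd* falling just short. Beside these values stood the highest summed level of 13 hypoxia genes, 3041 CPM against 1038 to 1798 in the other libraries, and the muscle and keratinocyte sums given above, whose part was not tested. The median log2 deviation of the hypoxia genes from their own medians was 0.39 there and higher, 0.69, in s-GAG on day 14, the library with the lowest *Vegfa*. Short genes were high in that s-GAG library, and the hypoxia values are not adjusted for gene length. In s-GAG 2 of the 10 were past 2-fold, *Nrp2* higher (1.19) and *Vegfb* lower (−1.03), against 25.5% of all genes, and with the trend with gene length removed neither was, at 0.75 and −0.90. The control library of day 3 had such a trend of its own, with a Spearman correlation of −0.35 between the deviation and gene length. In Alg 0 of the 10 were past 2-fold, against 20% of all genes, and *Vegfa* was nearest at 0.91.

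On day 7, 0 of the 10 genes were past 2-fold in d-SMG, against 13.2% of all genes, and the ratios ran from −0.73 for *Flt1* to 0.40 for *Vegfb*. In s-GAG 3 of the 10 were past it, all lower (*Vegfd* at −1.55, *Kdr* at −1.18, and *Nrp2* at −1.20), against 26% of all genes. In Alg 6 of the 10 were, all lower, against 24.4% of all genes. These were *Vegfc* (−1.41), *Vegfd* (−1.46), *Kdr* (−1.36), *Flt4* (−1.73), *Nrp1* (−1.42), and *Nrp2* (−1.28), that is, a pair of ligands, both receptors other than *Flt1*, and both neuropilins. The median ratio of the 10 genes was −0.28 in d-SMG, −0.89 in s-GAG, and −1.32 in Alg, beside medians of 0.01, 0.01, and −0.0019 over all genes. All these ratios share the control library of day 7, which had the highest CPM of all libraries for *Vegfc*, *Flt1*, *Kdr*, *Flt4*, *Nrp1*, and *Nrp2*. Removing the trend with gene length left the counts of day 7 as they were. The endothelial list summed to 1524 CPM in control and 1483 in d-SMG on day 7, against 1026 in s-GAG and 830.1 in Alg, and skeletal muscle genes summed to 149365 in Alg. What part these had in the ratios was not tested.

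On day 14, 2 of the 10 genes were past 2-fold in d-SMG, *Vegfd* (−1.36) and *Nrp1* (−1.09), both lower, against 28.6% of all genes. With the library totals in place of TMM, *Nrp1* fell short at −0.92. In Alg 1 of the 10 was, *Pgf*, 2.12-fold higher (1.08, interval 0.63 to 1.54), against 21.2% of all genes, and 0.99 with the trend with length removed. In s-GAG 6 of the 10 were past 2-fold, in a library where 57.8% of all genes were. *Pgf* was higher (1.76), and *Vegfa* (−1.07), *Vegfd* (−2.17), *Kdr* (−1.65), *Flt4* (−2.53), and *Nrp1* (−4.01) were lower.

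**Figure D4:**
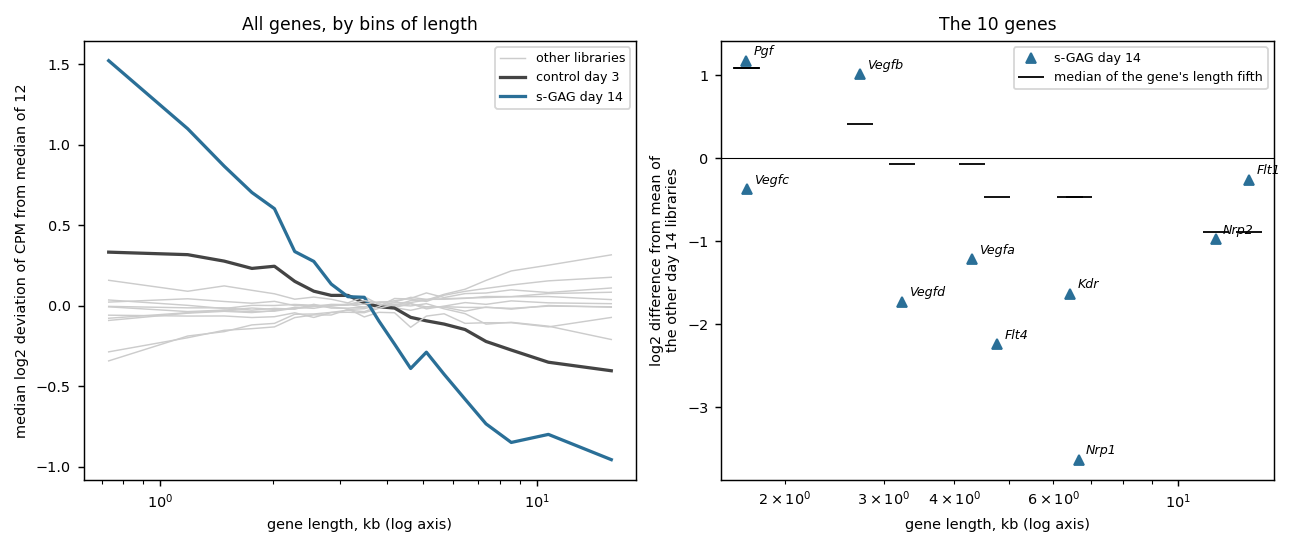
Left, median log2 deviation of CPM from the median of the 12 libraries in bins of protein-coding genes by length (log axis, kb), with s-GAG on day 14 in blue, control on day 3 in dark grey, and the other 10 libraries in light grey. Right, log2 difference of the 10 genes in s-GAG on day 14 from the mean of the other 3 libraries of that day against gene length, with the median of all genes of the same length quintile as a bar. *Nrp1* lies at −3.63 beside a bar at −0.47, and *Flt1* at −0.26 above its bar at −0.89.

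The s-GAG library of day 14 was examined by gene length, since long genes were low in it. *Nrp1*, of 6.67 kb, had 81 reads, or 5.52 CPM, where the other libraries of day 14 had 41.4 to 91.3 CPM. The log2 difference from their mean was −3.63, beside a median of −0.47 over the genes in the same quintile of length, and 1.01% of those genes were as low or lower. *Flt4* (4.77 kb) differed by −2.24 and *Kdr* (6.44 kb) by −1.63, beside the same median. *Flt1*, the longest of the 10 at 13.4 kb, differed by −0.26, and *Nrp2* at 11.7 kb by −0.97, in a quintile whose median was −0.89. Of the shorter genes, *Pgf* (1.71 kb) was higher by 1.18, beside a median of 1.09 in its quintile, and *Vegfc*, of the same length, differed by −0.37. *Vegfa* (4.30 kb) differed by −1.22 and *Vegfd* (3.23 kb) by −1.73, beside a median of −0.07. With the trend removed, 5 of the 10 were past 2-fold against control. The share of all genes past 2-fold after removal is not given here (before it, 57.8%), so this count is only a description. *Nrp1* (−3.20), *Vegfd* (−2.25), and *Flt4* (−2.09) remained so, *Vegfc* (−1.65) and *Flt1*, which turned from −0.18 to 1.05, came in, and *Vegfa* (−0.74), *Kdr* (−0.87), and *Pgf* (0.89) fell short. The sum of 12 macrophage and monocyte markers was also lowest in this library, 615.7 CPM against 954.5 to 4415 elsewhere, and its part was not tested.

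**Figure D5:**
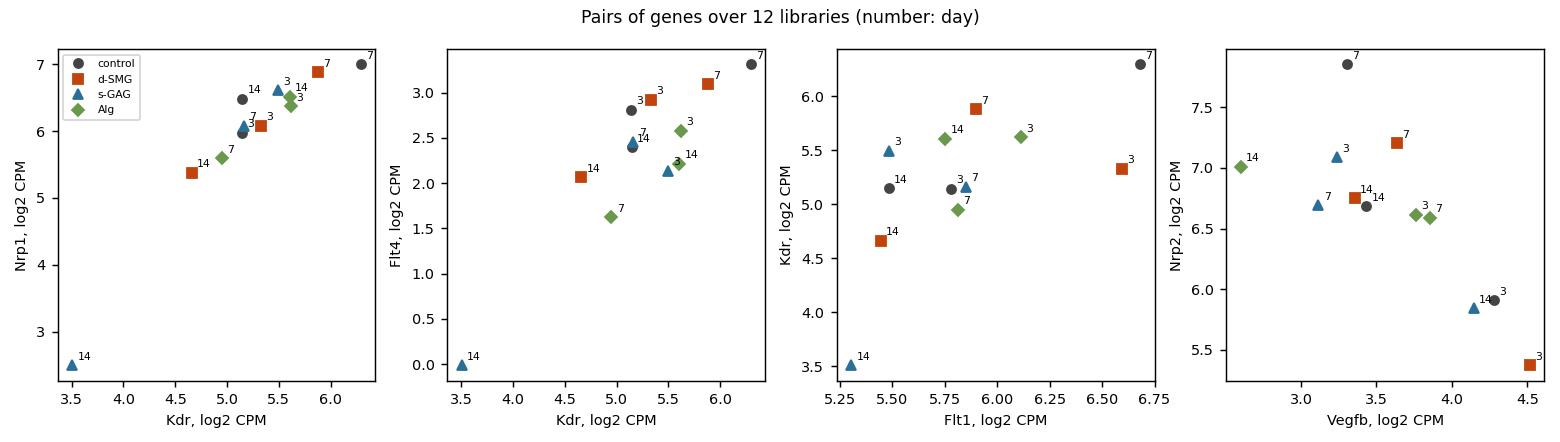
Log2 CPM of 4 pairs of the genes in the 12 libraries, with colour and shape for the treatment and the day beside each point. *Kdr* and *Nrp1* rise together (r = 0.94), *Vegfb* and *Nrp2* run opposite ways (r = −0.76), and the s-GAG library of day 14 lies apart at the lower left of the first 3 panels.

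The 10 genes were then compared with each other over the 12 libraries. The closest pair was *Kdr* and *Nrp1*, receptor and co-receptor for VEGF-A, with r = 0.94, and 0.91 without the s-GAG library of day 14. For *Flt4* and *Nrp1* r was 0.90, and 0.62 without that library, and for *Kdr* and *Flt4* it was 0.89 and 0.70. *Flt1*, though also an endothelial receptor, had an r of 0.66 with *Kdr* and 0.49 with *Nrp1*. It was closer to *Pgf*, its own ligand, once the s-GAG library of day 14 was left out, at 0.85 (0.62 with it). *Vegfa* had an r of 0.50 with *Kdr* and 0.57 with *Nrp1* over all libraries, and −0.14 and −0.30 without that library, so that the positive values rested on it. *Vegfb* and *Nrp2* had the most negative value, −0.76, and −0.73 without it. The libraries share depth and tissue content, and the values are descriptions.

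Ratios within a library do not depend on its scaling, and 6 of them were compared between days and between treatments by exact permutation tests. *Flt1* over *Kdr* in FPKM had a median of 0.71 and was above 1 in 2 libraries, d-SMG on day 3 (1.16) and s-GAG on day 14 (1.68). Accordingly *Flt1* made up 48.1% and 60.4% of the summed receptor FPKM there and 29.0% to 43.7% elsewhere. *Flt4* over *Kdr* was 0.170 to 0.267 in control and 0.194 to 0.252 in d-SMG, and 0.105 to 0.204 in s-GAG and 0.127 to 0.162 in Alg. The 3 Alg ratios lay below all 6 ratios of control and d-SMG, and so did those of s-GAG on day 3 (0.129) and day 14 (0.105). The share of other gene ratios so separated is not given here. The exact test between treatments gave p = 0.099 (adjusted over the 12 tests, 0.396). Without the Alg library of day 14 the same test gave an adjusted p of 0.0417. That refit was chosen after seeing the data and was the only 1 of 198 to pass.

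*Vegfa* made up 42.1% of the summed ligand FPKM in s-GAG on day 14 and 61.6% to 77.5% in the other libraries. In that library short genes were high, and *Pgf* and *Vegfb* are shorter than *Vegfa*. From the mean of the other day 14 libraries *Vegfa* differed by −1.22, beside a median of −0.07 in its quintile of length. The values were 1.02 beside 0.41 for *Vegfb* and 1.18 beside 1.09 for *Pgf*. The part of gene length in the share was not tested. *Vegfc* over *Vegfa* was lowest on day 3, with a geometric mean of 0.0218, against 0.0402 on day 7 and 0.0381 on day 14 (exact permutation p = 0.0833, adjusted 0.396). Between treatments it was 0.0506 in control, 0.0293 in d-SMG, 0.0362 in s-GAG, and 0.020 in Alg (exact permutation p = 0.0781, adjusted 0.396). *Nrp1* over *Nrp2* was 1.77 on day 3, 1.08 on day 7, and 0.68 on day 14 (exact permutation p = 0.144, adjusted 0.431), and the day 14 value was 1.08, as on day 7, without the s-GAG library, whose own ratio was 0.169. For *Pgf* and *Vegfb* over *Vegfa* and for *Flt1* over *Kdr* the adjusted p was 0.954 in every test by exact permutation. None of the 12 tests passed, and the smallest p the design allows was 0.00463 between days and 0.00174 between treatments.

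The other genes of the pathway were summarised by lists of known function. No gene of any of the 12 lists passed the FDR in any of the 6 comparisons by edgeR, and DESeq2 called *Jag1*, a Notch ligand, higher (adjusted p = 0.0187) and *Vash2*, of the vasohibin family, lower (adjusted p = 0.0263) in s-GAG against control. DESeq2 called 281 genes in that comparison. *Jag1* had 69.1 to 106 CPM in s-GAG and 25.7 to 39.7 CPM in control, and *Vash2* 2.39 to 5.33 and 10.1 to 15.9 CPM. These values come from the libraries on which the calls were made and are no further support for them. Of 22 genes of VEGF signalling and sprouting, 5 were higher and 1 lower at an unadjusted p under 0.05 in s-GAG against control, 3 were higher in Alg, and 0 in d-SMG, beside 9.26%, 3.12%, and 1.35% of all genes at that level in either direction. The median log2 difference of these genes was −0.17 in s-GAG and 0.05 in Alg, beside 0.00 and −0.03 over all genes. Of 19 endothelial genes tested, 4 were lower at an unadjusted p under 0.05 in s-GAG (9.26% of all genes), with a median of −0.65, and 4 on day 14 against day 7 (3.12% of all genes), with a median of −0.61. Of 13 genes for the processing, binding, and inhibition of VEGF, 3 were lower at that level in s-GAG (median −0.58, beside 9.26% of all genes). In Alg 3 were lower (−0.29, beside 3.12%), and in d-SMG 2 (−0.11, beside 1.35%). The 12 neuropilin partners, class 3 semaphorins and plexins, had medians of −0.36 in d-SMG, −0.35 in s-GAG, and 0.00 in Alg. The 13 hypoxia genes had medians of −0.00091 in d-SMG, 0.19 in s-GAG, and −0.00063 in Alg, and the 7 lymphatic genes tested had −0.76, −0.84, and −0.62. Of the lists for other cell types, that of macrophages and monocytes had a median of −1.39 in s-GAG, with 5 of 12 genes lower at an unadjusted p under 0.05 (9.26% of all genes), and that of keratinocytes 1.79. The corresponding medians in s-GAG were 0.46 for skeletal muscle, −0.86 for fibroblasts and matrix, −0.27 for pericytes and smooth muscle, and 0.97 for adipocytes.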

How the data were processed

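Wound RNA of 12 libraries (4 treatments on 3 days) was depleted of rRNA and sequenced as stranded paired reads. The authors deposited read counts per gene, without normalization, for 25620 genes, and FPKM values, scaled by gene length and library total by the authors, for 25524 genes. The submitters' processing notes name bcl2fastq, FastQC, TopHat2, and edgeR, while versions, genome build, annotation, and counting rules are not given in the sources used here. Each file held 1 further column that matched no described sample, which was not used. Groups came from the treatment label. Counts were fitted with edgeR 4.0.16 (R 4.3.3) with day and treatment as terms, TMM scaling, filterByExpr (16110 genes), the quasi-likelihood test, and Benjamini-Hochberg adjustment over all genes. In this fit the 6 residual degrees of freedom are the differences of treatment effects between days, and the p-values measure only the spread between these libraries. Treated and control libraries of a day were compared by log2 ratios with a prior count of 0.125 over genes with at least 10 reads in the pair, and with exact binomial intervals at 95%, which cover counting error only. Correlations used log2 CPM with a prior count of 2, and gene length was that implied by the 2 tables. Ratios of genes were tested on log2 of reads plus 0.5 by exact two-sided permutation within strata. The genes named are the 10 genes and, for each, the 3 most correlated genes with a mean of at least 1 CPM and no provisional symbol. The alternatives were RLE or library size scaling, no filter, DESeq2 1.42.0, limma 3.58.1 on FPKM with 0.1 or 1 added, only the libraries compared, each library left out, a prior count of 2, and 1.5-fold in place of 2-fold. Removing the trend with gene length (a lowess curve per library), leaving out 2 libraries together, and leaving single libraries out of the ratio tests were chosen after seeing the data. The genes and lists were chosen with earlier results of these data known. *Vegfb* is among the genes that the study names from its RNA sequencing, and *Vegfa* among those it reports from real-time PCR of diabetic wound tissue. Robo4, Car9, Lor, and Trp63 of the lists were not found by symbol. The tests were checked on simulated data. Python 3.11.15 and matplotlib 3.10.9 served for the permutation tests and the figures.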

Additional observations from a re-analysis of the deposited data

Results flagged for a closer look

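The gap between the highest or lowest library of a day and its nearest neighbour was divided by the range of the 4 libraries, for the 10 genes and the 6 ratios on each of the 3 days, 48 sets in all. Chance takes about 1 of 20 sets past the 95% critical value of Dixon's test, and the 4 libraries of a day are 4 treatments and not replicates. There were 2 sets past it. *Flt1* in the control library of day 7 (103 CPM against 56.1 to 59.5 in the other groups) had a ratio of 0.901. *Flt4* in the s-GAG library of day 14 (0.89 CPM against 4.09 to 5.18) had a ratio of 0.863, from 13 reads. Long genes were low in that library. The log2 difference of *Flt4* from the mean of the other libraries of that day was −2.24, beside a median of −0.47 in its quintile of length. The part of gene length was not tested.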

How the results depend on the processing

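The count of 0 of the 10 genes past the FDR was the same in the 6 comparisons under all 21 alternatives, by edgeR, DESeq2, and limma, while the counts over all genes differed between tools. In a design with 1 library per treatment and day this says nothing about the absence of an effect. The 12 fold changes followed (the pair with the smallest p in each comparison) kept their direction in all 252 refits, *Flt4* in s-GAG ranging from −1.63 to −0.57 and *Vegfa* on day 14 against day 3 from −1.04 to −0.25. They were picked by their p on the same libraries, so a kept direction is no independent check. *Vegfd* on day 14 against day 7, not among the 12, changed direction without the s-GAG library of day 14. The counts past 2-fold on single days moved more. In 16 of 45 cases they changed by over 1.5 times, or to or from 0, and the cause was not tested. Smaller changes, such as from 6 to 8 in s-GAG on day 14 with library size alone, are not among the 16. With library size alone the counts became 1 in d-SMG, 1 in s-GAG, and 1 in Alg on day 3, and 1 in d-SMG on day 14. With FPKM they became 1 in d-SMG and 1 in s-GAG on day 3, and 1 in d-SMG on day 14. At 1.5-fold, by construction, they rose to 4 in s-GAG and 3 in Alg on day 3, 3 in d-SMG and 7 in s-GAG on day 7, and 4 in d-SMG and 2 in Alg on day 14. With the trend with gene length removed they fell to 0 in s-GAG on day 3, and to 1 in d-SMG and 0 in Alg on day 14. The shares of all genes past the threshold under these alternatives are not given here. Of the ratio tests, 1 of 198 refits passed, *Flt4* over *Kdr* between treatments, whose adjusted p ranged from 0.0417 (without the Alg library of day 14) to 0.954 (without day 3). *Vegfc*, with 15 to 67 reads, is limited most by depth.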
